A study of Mus musculus with 15 samples.

Results

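The cytosolic ribosomal proteins were taken as the genes whose symbol was Rpl or Rps followed by a number and at most 1 of the letters a, x, y or l, together with Rplp0, Rplp1, Rplp2 and Rpsa. This rule uses no measured value, leaves out pseudogene symbols ending in -ps, and found 82 of the 55335 genes listed. They were measured by RNA-seq in tumor-associated macrophages (TAMs), which are macrophages living inside a tumor, sorted by FACS as CD11b+ F4/80+ cells from orthotopic hepatocellular carcinoma in C57BL/6 mice. The tumors grew from Hepa1-6 cells, a mouse hepatoma line, placed in the liver of the mice. The 3 groups had 5 samples each and were TAMs from control tumors (control), from tumors overexpressing miR-144 (miR-144) and from tumors overexpressing miR-451a (miR-451a). The miRNA was delivered to the tumor cells by lentivirus, so the TAMs themselves were not modified, and the labels describe every sample as untreated. The age of the mice is not given, and neither is whether a sample is 1 mouse or a pool. The p-values therefore measure the spread between these samples, which may be partly technical.

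A ribosome consists of a small and a large subunit, each built of ribosomal RNA and many ribosomal proteins, and it reads an mRNA and joins amino acids into protein. The small subunit decodes the mRNA, the large subunit forms the peptide bond, and a flexible stalk on the large subunit recruits translation factors. Ribosomal protein mRNAs are among the most abundant in most cells, and many start with a C followed by a run of pyrimidines, the 5′ terminal oligopyrimidine motif through which mTORC1 signalling controls their translation. A few members have paralogs with restricted expression, such as Rpl3l in muscle and Rpl10l and Rpl39l in testis.

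Sequences are shown for a pair of paralogs, Rps27, which passed the test, and Rps27l, which did not, for the member with the lowest difference from control, and for the start sites. Rps27 and Rps27l encode nearly the same small subunit protein, and both coding sequences are 252 bases long. They lie on the minus strand of chr3:90212728-90213615 and on the plus strand of chr9:66946175-66949354 in GRCm38, with 192 identical bases (76.2%). The capitals mark the 60 bases at which they differ, and the longest identical run is 11 bases.
Rps27: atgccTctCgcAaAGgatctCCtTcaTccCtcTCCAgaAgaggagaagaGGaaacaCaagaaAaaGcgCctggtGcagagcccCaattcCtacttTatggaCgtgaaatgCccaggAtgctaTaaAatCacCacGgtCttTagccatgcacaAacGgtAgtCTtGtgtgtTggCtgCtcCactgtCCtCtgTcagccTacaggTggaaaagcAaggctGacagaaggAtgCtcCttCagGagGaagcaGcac
Rps27l: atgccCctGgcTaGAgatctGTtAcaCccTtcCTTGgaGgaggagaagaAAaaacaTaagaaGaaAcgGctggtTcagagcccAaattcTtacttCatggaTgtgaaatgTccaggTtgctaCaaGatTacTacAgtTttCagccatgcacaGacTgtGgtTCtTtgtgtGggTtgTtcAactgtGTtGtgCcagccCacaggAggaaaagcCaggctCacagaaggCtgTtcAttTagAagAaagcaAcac

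Rpl41 has the shortest coding sequence of the members, 75 bases on the minus strand of chr10:128548390-128548960 in GRCm38, for a small basic peptide of the large subunit. The 48 capitals mark the bases in stretches of 50 bases that occur in no other annotated gene.
Rpl41: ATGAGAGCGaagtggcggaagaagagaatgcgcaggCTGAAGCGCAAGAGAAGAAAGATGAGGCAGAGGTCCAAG

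RefSeq start sites in GRCm38.p6 were at hand for 60 of the 82 members, with 72 promoters among 32851 in all. Stretches from 35 bases before to 25 bases after the start are given for 3 members with a long pyrimidine run and for Rps6, whose protein is phosphorylated downstream of mTORC1. Capitals mark a C followed by at least 4 C or T on the sense strand, beginning between 5 bases before and 10 bases after the start. The stretches are chr7:109519160-109519219 (plus strand) for Rpl27a, chr2:39005107-39005166 (minus) for Rpl35, chr14:18270962-18271021 (minus) for Rpl15 and chr4:86857343-86857402 (minus) for Rps6.
Rpl27a: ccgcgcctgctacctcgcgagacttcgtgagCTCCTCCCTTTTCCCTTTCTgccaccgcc
Rpl35: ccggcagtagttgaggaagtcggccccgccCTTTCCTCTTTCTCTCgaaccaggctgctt
Rpl15: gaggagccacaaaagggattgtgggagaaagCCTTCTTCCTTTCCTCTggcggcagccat
Rps6: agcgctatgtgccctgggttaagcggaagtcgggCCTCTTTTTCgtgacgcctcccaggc

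Such a run occurred in that window in 30 of the 72 member promoters (41.7%) and in 18.3% of all other promoters of the same length. It began at the annotated start itself in 18.1% of member promoters and in 2.47% of the others. CGGAAG, the core of the site of ETS family factors, was present on either strand within 250 bases before to 50 bases after the start in 61.1% of member promoters, in 16.8% of all other promoters and in 32.8% of those of the other tested genes. These shares describe letters in a window and draw on the annotated start only. Of the 28 members with a run in the window, 19 were higher than control in each miRNA group, and of the 30 tested members without one, 19 and 20 were, beside 47.1% (miR-144) and 48.1% (miR-451a) of all tested genes.

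FPKM, fragments per kilobase of transcript scaled to the mapped fragments of the library, takes out transcript length and depth, so levels can be compared between genes. The depth implied by the spacing of low values was 15.5 to 30.3 M fragments per sample and is approximate, since only 34.4% to 46.7% of the values used fell on whole steps. All 8 entries of a macrophage marker list (7 symbols, with Itgam listed under 2 identifiers) had a mean of at least 1 FPKM, and their summed level was 8694 to 9526 FPKM in control, 14689 to 16545 in miR-144 and 14383 to 15593 in miR-451a. No FPKM above 0 was listed in any sample for the T cell markers Cd3g and Cd3e, the NK cell markers Ncr1 and Gzma or the neutrophil marker Retnlg. Of 5 hepatocyte or hepatoma markers, Alb, Apoa1, Ttr and Serpina1a were listed at 0 in every sample. No marker of T, B, NK, hepatocyte or erythroid cells reached a mean of 1 FPKM over the 15 samples. The B cell marker Cd79b, however, had means of 0.185 FPKM in control, 1.15 in miR-144 and 1.38 in miR-451a, and no sample of a miRNA group overlapped with control. Neutrophil markers summed to 64.9 to 79.2 FPKM in control, 46.2 to 52.2 in miR-144 and 44.1 to 53.2 in miR-451a, nearly all of it Csf3r, and of 4 markers of dividing cells 2 rose and 2 fell. The NK cell marker Klrb1c had means of 0.319, 0.113 and 0.0721 FPKM in the same order, with every sample of a miRNA group below every control sample. Of 3 endothelial markers Kdr rose, by 0.35 and 0.40, Pecam1 had means of 0.197, 0.126 and 0.163 FPKM and Cdh5 of 0.0782, 0.0942 and 0.107 FPKM, with overlapping groups, and the list summed to 2.72 to 3.38 FPKM in control, 3.53 to 4.50 in miR-144 and 3.41 to 5.37 in miR-451a. Of the macrophage entries 6 rose and 1 fell in each miRNA group. The entry that fell was Cd68, by 0.65 and 0.67, from a mean of 1444 FPKM to 919 and 910. Of the 2 Itgam entries 1 neither rose nor fell, at -0.14 and 0.28 with overlapping groups. The other macrophage entries, Csf3r, Cd79b, Klrb1c and Kdr thus moved with the groups, and their part in the results below was not tested. In bulk samples fewer cells of a type and less RNA per cell cannot be told apart.

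Ribosomal proteins were abundant in these TAMs. Of the 82 members, 50 had a mean over the 15 samples of at least 100 FPKM, 28 lay at 10 to 100, 2 at 1 to 10 and 2 under 1 FPKM. The median of the 80 members with a mean of at least 1 FPKM was 135 FPKM, against 6.49 FPKM over the 11419 genes that passed this filter, and 13 members were among the 100 genes with the highest mean. The order of mean levels began with Rplp1, a stalk protein, at 1008 FPKM, followed by Rps15 at 577, Rplp0 at 450, Rpl8 at 399 and Rps4x at 393 FPKM. At the other end of the members with at least 1 FPKM stood Rpl22 at 28.9, Rps4l at 8.71 and Rpl39l at 2.67 FPKM. Rpl3l and Rpl10l lay below them. Of the 81 pairs of neighbours in this order, 76 overlapped in their ranges over the 15 samples, so the order is not resolved between most neighbours.

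Both miRNA groups had a larger share of ribosomal protein FPKM than control. The summed FPKM of the members was 4.10%, 4.34%, 3.87%, 4.19% and 4.2% of the summed FPKM of all genes in the 5 control samples. It was 5.23%, 4.90%, 4.72%, 4.94% and 4.85% in miR-144 and 4.73%, 5.0%, 5.02%, 5.17% and 4.97% in miR-451a. The means were 4.14% ± 0.172 (SD, n = 5), 4.93% ± 0.188 (SD, n = 5) and 4.98% ± 0.158 (SD, n = 5). Every sample of both miRNA groups lay above every control sample, while the ranges of the miRNA groups overlapped. Numerator and denominator both moved: the members summed to a mean of 12560, 14232 and 14257 FPKM in control, miR-144 and miR-451a, and all genes to 303304, 288785 and 286367 FPKM.

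**Figure D1:**
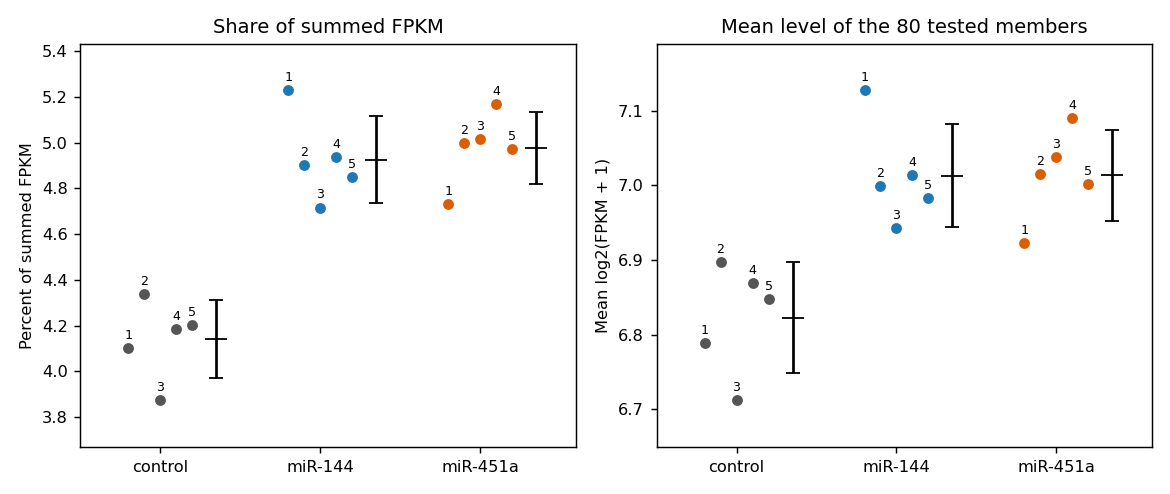
Left, percent of the summed FPKM of all genes held by the 82 cytosolic ribosomal protein genes, and right, mean log2(FPKM + 1) of the 80 tested members (y axes, not starting at 0), in each of the 15 samples by group (x axes), with replicate numbers, group mean and SD. Control samples sit between 3.87% and 4.34% on the left and all samples of the miRNA groups at 4.72% or above, and on the right control samples lie between 6.71 and 6.90 and the others from 6.92 up.

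Gene by gene, the members moved upward by small amounts. Differences are on the scale of log2(FPKM + 1), tested with limma across the 11419 genes, and a gene is said to rise or fall where the Benjamini-Hochberg adjusted p was under 0.05. Against control, 52 of the 80 tested members rose in miR-144, none fell and 28 did not pass the test. In miR-451a 52 rose as well, none fell and 28 did not pass. These counts stand against a background in which most genes changed: 67.2% of all tested genes passed in miR-144 (47.1% higher and 20.1% lower) and 68.3% in miR-451a (48.1% higher and 20.3% lower). On this scale the members' 65.0% was near the background for any change, above it for rises and below it for falls, but whether rises were in excess depended on the scaling, as given below.

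The size of the rises was modest. The median difference of the members was 0.19 in miR-144 and 0.19 in miR-451a, against medians of 0.13 and 0.14 over all tested genes. Of the 80 tested members, 75 in miR-144 and 71 in miR-451a were above 0, and 54 and 56 were above the median of all genes. The samples of the group lay wholly above the control samples for 34 members in miR-144, beside 37.9% of all tested genes, and for 36 members in miR-451a, beside 38.8%. In no member did they lie wholly below, beside 1829 (miR-144) and 1871 (miR-451a) of the 11419 tested genes. No member reached a difference of 0.5 in miR-144, and 2 did in miR-451a, among them Rpl39l. Of the 11419 tested genes, 2602 and 2794 passed the test with a difference of at least 0.5 in either direction. The comparisons share their control samples, so their likeness is not independent evidence, and both values are given for each member.

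When each sample was set to the same median over tested genes, the member median was 0.05 and 0.04 and that of all genes 0.00 and -0.01, and 52 and 56 of the 80 members were above 0. The rises then numbered 20 in miR-144, which is 25% of the members beside 30.8% of all tested genes, and 25 in miR-451a, 31.3% beside 31.3%. The share of members that rose was thus no longer above that of all genes. With quantile normalization it was 72.5% in each comparison, beside 32.03% and 32.93% of all genes, and with each sample's trends on transcript length and GC content removed it was 52.5% and 56.3%, beside 30.8% and 31.9%. Under median centring Rps2 fell in miR-144, and Rpl41, Rplp1, Rplp2 and Rps2 fell in miR-451a, while the calls over all genes split into 3512 higher and 3511 lower in miR-144 and 3577 and 3636 in miR-451a. Of the rises described below, those of Rpl10, Rpl23a, Rplp0, Rps3, Rps6, Rps15, Rps19 and Rps26 lost their call under it in both comparisons, those of Rpl22 and Rpl39l in miR-144, and those of Rpl11, Rpl13a and Rps27 in miR-451a.

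**Figure D2:**
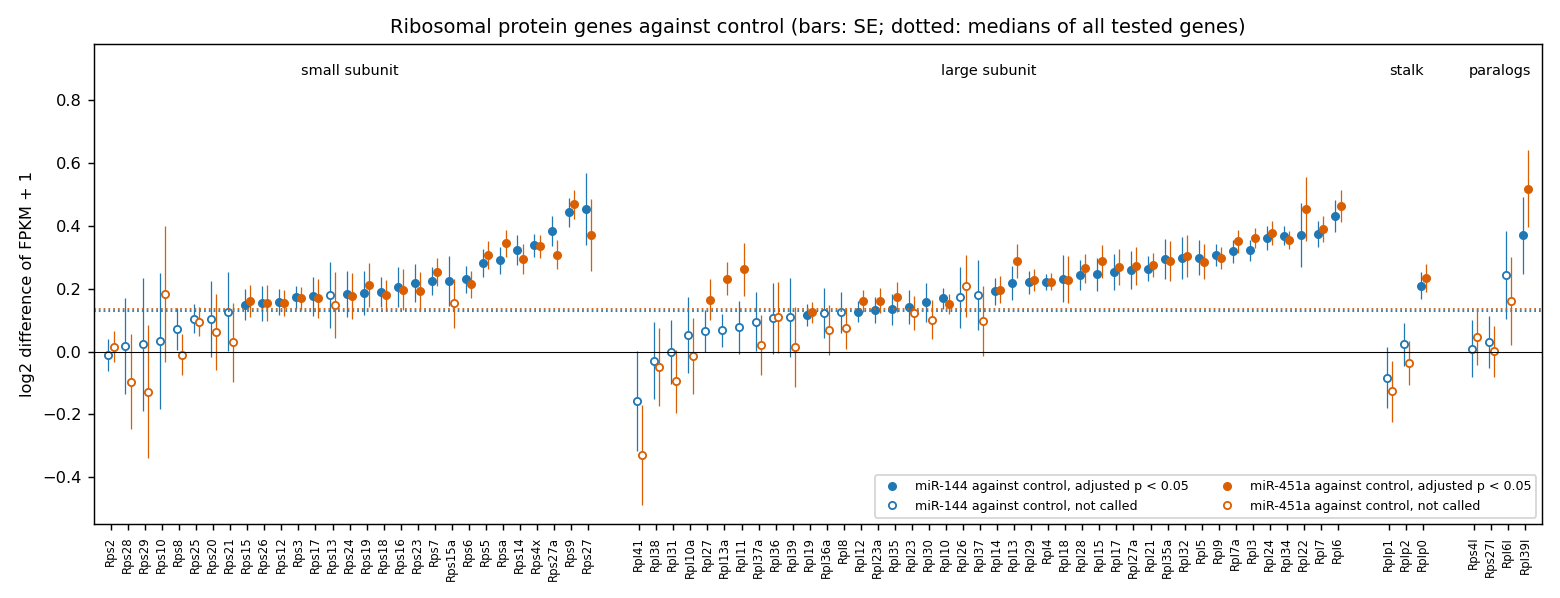
Difference of log2(FPKM + 1) from control for 78 of the 80 tested ribosomal protein genes in miR-144 and in miR-451a, grouped by subunit, with bars for the standard error, filled points for an adjusted p under 0.05 and dotted lines at the medians of all tested genes (0.13 and 0.14). Most of them lie between 0 and 0.5, with Rpl39l highest at 0.52 in miR-451a and Rpl41 lowest in both comparisons.

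Between samples of a group the members tended to move together. Control replicate 3 was above the group mean for only 9 of 80 members, miR-144 replicate 3 for 13 and miR-451a replicate 1 for 16, while control replicate 2 was above it for 66 and miR-144 replicate 1 for 71. Leaving out these 5 libraries, all those at no more than 20% or at least 80% of the members, left 43 members higher in miR-144, of which 42 were among the 52, beside 40.1% of all tested genes. In miR-451a it left 49, of which 48 were among the 52, beside 42.5%. The member medians were then 0.18 and 0.20. The calls of Rpl22 (0.33), Rpl23a (0.10), Rpl39l (0.39), Rps15 (0.11) and Rps26 (0.09) in miR-144 and of Rpl11 (0.25) in miR-451a were lost, and Rpl13a passed in miR-144 (0.17). Leaving out only the farthest library of each group, control replicate 3, miR-144 replicate 1 and miR-451a replicate 1, left 41 members higher in miR-144, beside 44.1% of all genes, and 49 in miR-451a, beside 44.7%. The member medians were 0.14 and 0.18, against 0.12 and 0.13 over all genes. Rplp1 was then lower in miR-144 (-0.20), and of the calls named here the same were lost except that Rps19 in miR-144 (0.09) took the place of Rpl22.

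Of the 30 tested small subunit members, 21 rose in miR-144 and 20 in miR-451a, with median differences of 0.19 and 0.18, beside 47.1% and 48.1% of all tested genes. With median centring 8 rose in each, beside 30.8% and 31.3% of all genes. Rps9, which sits near the mRNA channel, had the largest rise of a small subunit member in miR-451a. Its control samples were at 160, 145, 132, 134 and 142 FPKM, its miR-144 samples at 187, 193, 186, 199 and 205, and its miR-451a samples at 198, 204, 199, 194 and 192. No sample of either miRNA group came near a control sample, and the differences were 0.44 ± 0.05 (SE, adjusted p = 6.25e-07) and 0.47 ± 0.05 (adjusted p = 3.27e-07).

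Rps27a, made as a fusion of ubiquitin and a small subunit protein, lay at 108 to 114 FPKM in control, at 136 to 163 in miR-144 and at 130 to 146 in miR-451a. The rises were 0.38 and 0.31. Rps4x, the X-linked form of S4, lay at 314 to 361 FPKM in control, 414 to 433 in miR-144 and 409 to 440 in miR-451a, a rise of 0.34 in each. Neither gene's miRNA samples overlapped its control samples.

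Rpsa, which is also known as the laminin receptor, rose by 0.29 and 0.34, and Rps14 by 0.32 and 0.29. Rps6, the substrate of the S6 kinases, rose by 0.23 in miR-144, from a mean of 227 ± 10.9 FPKM (SD, n = 5) to 266 ± 14.4 FPKM (SD, n = 5). In miR-451a it rose by 0.21, to 263 ± 8.93 FPKM (SD, n = 5). Rps3, which lines the mRNA entry, rose by 0.17 in each group. These rises did not overlap with control, but removing each sample's trends on transcript length and GC content took Rps3 under the test, at 0.05 and 0.04.

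Several small rises near the threshold changed their call with the processing or with single libraries. Rps15, at 536 ± 22.1 FPKM in control (SD, n = 5), rose by 0.15 and 0.16 with overlapping groups. Its call was lost in both comparisons under quantile normalization (0.04 and 0.06) and with length and GC trends removed (0.07 and 0.07), but by leaving out no single library. Rps26 rose by 0.15 in each comparison, and in miR-144 the call was lost without control replicate 1 (0.15), control replicate 3 (0.11) or miR-144 replicate 1 (0.13). In miR-451a it was lost without control replicate 3 (0.11) or miR-451a replicate 4 (0.14). Rps19, the gene most often mutated in Diamond-Blackfan anaemia, rose by 0.19 and 0.21. In miR-144 that call was lost without control replicate 1 (0.18), control replicate 3 (0.12), miR-144 replicate 1 (0.15) or miR-144 replicate 4 (0.18), and in both comparisons with length and GC trends removed (0.08 and 0.10). In miR-451a no single library ended it.

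Rps2, an abundant protein at the mRNA entry, gave no call in either comparison. It lay at 195, 186, 198, 164 and 181 FPKM in control, at 183, 188, 178, 185 and 182 in miR-144 and at 198, 195, 189, 173 and 178 in miR-451a. The groups overlapped throughout, the differences were -0.01 ± 0.05 (SE) and 0.02 ± 0.05, and the sign depended on the scaling: -0.14 and -0.13 with median centring, 0.17 and 0.22 with quantile normalization, each past the test.

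Rps29, a zinc-binding protein of the small subunit head, gave no call either. Its control samples were at 235, 309, 219, 327 and 274 FPKM, its miR-144 samples at 401, 215, 283, 286 and 222 and its miR-451a samples at 158, 221, 278, 379 and 249. The groups covered each other almost wholly, with differences of 0.02 ± 0.21 (SE) and -0.13 ± 0.21. Rps20, at 27.3 to 43.5 FPKM over all samples, had differences of 0.10 and 0.06, not past the test.

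Rps10 fell into separate levels inside every group. Control replicates 1 and 4 were at 106 and 103 FPKM and the others at 64.6, 61.5 and 63.2. In miR-144 replicate 2 was at 116 and the others at 65.8 to 76.7 FPKM, and in miR-451a replicates 1 and 3 were at 118 and 121 and the others at 70.3 to 72.2. The differences were 0.03 ± 0.22 (SE) and 0.18 ± 0.22, the largest standard error among the members named here. Of the 50-base stretches of its principal transcript 56.8% occur in other genes, most in the read-through gene RPS10-NUDT3, and the part of this overlap in the 5 high samples was not tested.

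Of the 43 tested large subunit members, 29 rose in miR-144 and 30 in miR-451a, with medians of 0.19 and 0.23, beside the same shares of all genes. With median centring 12 and 16 rose, which is 27.9% and 37.2%, beside 30.8% and 31.3% of all genes. Rpl6 had the largest rise in miR-144 among them. It was at 125, 111, 114, 112 and 126 FPKM in control, at 152, 167, 153, 154 and 169 in miR-144 and at 166, 175, 163, 153 and 155 in miR-451a. All miRNA samples exceeded all control samples, with differences of 0.43 ± 0.05 (SE, adjusted p = 1.95e-06) and 0.46 ± 0.05 (adjusted p = 8.4e-07).

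Rpl22, an RNA-binding member at low level, was at 22.0, 25.4, 22.9, 28.4 and 19.3 FPKM in control. It was at 34.9, 23.9, 30.9, 34.2 and 30.0 in miR-144 and at 31.9, 30.1, 32.7, 33.5 and 34.0 in miR-451a. The rises were 0.37 ± 0.10 (SE, adjusted p = 0.00471) and 0.45 ± 0.10 (adjusted p = 0.00102), and only miR-144 replicate 2 reached into the control range. Its paralog Rpl22l1, which the rule does not match, was at 14.7 ± 2.58 FPKM (SD, n = 5) in control, 12.1 ± 1.58 in miR-144 and 11.6 ± 1.28 in miR-451a. It fell by 0.31 in miR-451a, and the difference of -0.26 in miR-144 did not pass (adjusted p = 0.0526).

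Rpl24, which bridges the subunits, rose by 0.36 and 0.38, from 158 to 183 FPKM in control to 208 to 235 in miR-144 and 221 to 227 in miR-451a. Rpl3, which lies near the peptidyl transferase centre, lay at 132 to 145 FPKM in control, 167 to 183 in miR-144 and 172 to 187 in miR-451a, rises of 0.32 and 0.36. Rpl10, a late-joining protein, rose by 0.17 and 0.15, and Rpl23a, at the exit of the peptide tunnel, by 0.13 and 0.16. For these 4 genes no sample of a miRNA group overlapped with control.

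Rpl5 and Rpl11 form, with 5S rRNA, the particle that binds the p53 regulator MDM2. Rpl5 rose by 0.30 and 0.29, from 73.2 to 94.0 FPKM in control to 96.4 to 108 in miR-144 and 96.1 to 106 in miR-451a. Rpl11 lay at 57.4, 78.9, 68.1, 75.8 and 76.2 FPKM in control, at 79.2, 76.4, 70.8, 75.4 and 72.3 in miR-144 and at 95, 79.4, 96, 79.5 and 77.6 in miR-451a. Its difference of 0.08 in miR-144 did not pass and its rise of 0.26 in miR-451a did (adjusted p = 0.0123), with miR-451a replicates 1 and 3 far above the others. Rpl26, which binds p53 mRNA, was at 0.17 and 0.21, short of the test (adjusted p = 0.133 and 0.0702). It passed in both comparisons without control replicate 2 (0.25 and 0.29) or control replicate 5 (0.24 and 0.27), which were at 277 and 266 FPKM against 190 to 202 in the other control samples. It also passed in both with quantile normalization (0.38 and 0.40), as TPM (0.24 and 0.29) and when scaled without the members (0.25 and 0.30).

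Rpl13a, known for silencing inflammatory mRNAs in macrophages when released from the ribosome, was at 185, 211, 207, 180 and 184 FPKM in control. It was at 207, 213, 188, 203 and 203 in miR-144 and at 236, 234, 229, 206 and 231 in miR-451a. It rose in miR-451a by 0.23 ± 0.05 (SE, adjusted p = 0.00112), and the difference in miR-144 was 0.07 ± 0.05 (adjusted p = 0.268), which did not pass. In miR-144 it passed with quantile normalization (0.26), as TPM (0.14) and when scaled without the members (0.15), and it was -0.07 with median centring. The groups overlapped in both comparisons.

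Rpl37a, Rpl38 and Rpl39, small proteins of the large subunit, gave no call. Rpl38, which influences translation of Hox mRNAs, was at 127 to 174 FPKM in control, 127 to 181 in miR-144 and 112 to 176 in miR-451a, with differences of -0.03 ± 0.12 (SE) and -0.05 ± 0.12. Rpl37a was at 0.10 and 0.02, the first past the test with quantile normalization (0.21), and Rpl39, which lines the peptide exit tunnel, at 0.11 and 0.01. Rpl41 had the lowest difference of all members in both comparisons, with control samples at 68.5, 88.6, 77.7, 125 and 111 FPKM, miR-144 samples at 95.5, 97.0, 72.2, 79.0 and 71.5 and miR-451a samples at 57.0, 70.5, 80.2, 88.4 and 72.4. Its differences were -0.16 ± 0.16 (SE, adjusted p = 0.399) and -0.33 ± 0.16 (adjusted p = 0.0789). The second passed the test without control replicate 1 (-0.43) or without miR-451a replicate 4 (-0.40).

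Of the 3 stalk proteins 1 rose in each miRNA group, beside 47.1% and 48.1% of all tested genes. Rplp0, which anchors the stalk, rose by 0.21 and 0.23, with control at 370 to 429 FPKM, miR-144 at 440 to 493 and miR-451a at 463 to 487. Rplp1, the most abundant member, was at 1002, 1136, 928, 1158 and 1055 FPKM in control, at 1210, 912, 920, 1012 and 938 in miR-144 and at 837, 911, 991, 1186 and 930 in miR-451a. Its groups overlapped and its differences were -0.08 ± 0.10 (SE) and -0.13 ± 0.10. Its partner Rplp2 was at 0.02 ± 0.07 (SE) and -0.04 ± 0.07. Whether Rplp0 differed from Rplp1 and Rplp2 in its change was not tested.

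**Figure D3:**
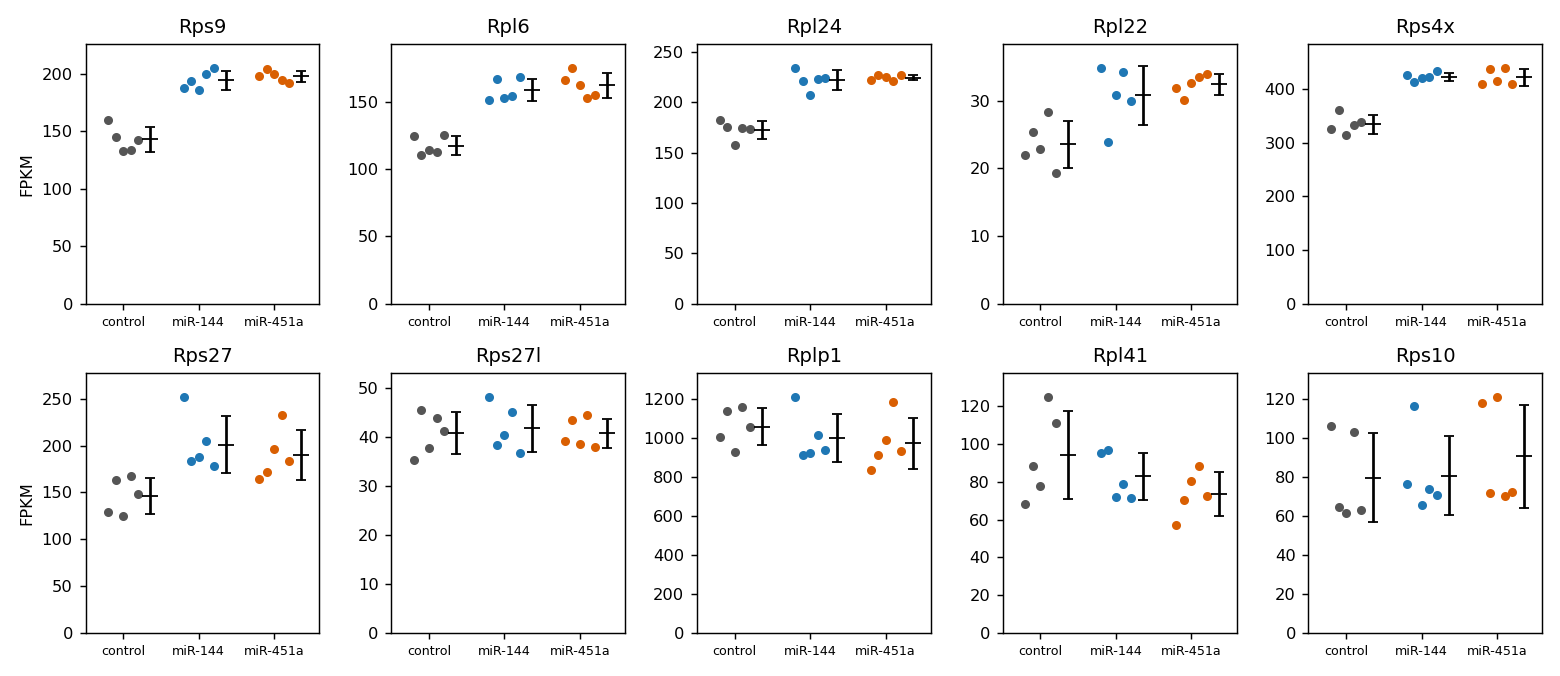
FPKM (y axis, from 0) of 10 named members in each sample of the 3 groups, with group mean and SD at the right of the points. Rps9, Rpl6, Rpl24 and Rps4x separate both miRNA groups from control, and Rps10 splits into samples above 100 and samples below 77 FPKM in every group.

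The paralogs behaved one by one. Rps27 was at 129, 163, 125, 167 and 149 FPKM in control, at 252, 183, 187, 205 and 178 in miR-144 and at 164, 172, 197, 232 and 184 in miR-451a. It rose by 0.45 ± 0.11 (SE, adjusted p = 0.00268) in miR-144, without overlap, and by 0.37 ± 0.11 (adjusted p = 0.00982) in miR-451a, with overlap. Its paralog Rps27l, a p53 target, lay at 35.4 to 45.7 FPKM in control, 36.8 to 48.3 in miR-144 and 38.0 to 44.5 in miR-451a, with differences of 0.03 ± 0.08 (SE) and 0.00 ± 0.08, not past the test. Whether the paralogs differed in their change was not tested. The coding sequences printed above hold no identical run over 11 bases. In contrast, 98.6% of the 50-base stretches of the principal Rps27 transcript occur in other genes, most in Rps27rt, so its value may include theirs.

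Rpl39l, none of whose stretches occur in another gene, was at 1.87, 1.87, 2.09, 1.5 and 2.38 FPKM in control. It was at 3.31, 3.21, 2.28, 2.30 and 2.96 in miR-144 and at 3.01, 3.47, 3.35, 4.24 and 2.19 in miR-451a. It rose by 0.37 ± 0.12 (SE, adjusted p = 0.0153) and 0.52 ± 0.12 (adjusted p = 0.0016), a scale that understates change at so low a level, and the mean was 44.7% and 67.4% higher than in control. The groups overlapped in each comparison, and in miR-144 the call was lost with quantile normalization (0.20), without the 3 libraries (0.34) and without the 5 (0.39).

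Rps4l and Rpl6l match the rule but are annotated in GENCODE M21 as processed pseudogenes. Rps4l lay at 7.21 to 10.5 FPKM over all samples with differences of 0.01 and 0.05, and Rpl6l at 21.6 to 42.1 FPKM with 0.24 and 0.16, none past the test. Rpl3l, known from muscle, reached at most 0.0653 FPKM and was listed at 0 in 7 samples, below the 0.0719 to 0.140 FPKM that 3 fragments of its longest transcript would give. Rpl10l, known from testis, was listed at 0 in all 15 samples, where 3 fragments would give 0.0967 to 0.189 FPKM. These floors cover counting error only.

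The members were also counted by coding length, which the rule did not use. Of the 11 tested members with under 300 coding bases, only Rps27 and Rpl39l rose, in each comparison. From 300 to under 600 bases 34 of 46 rose in miR-144 and 33 in miR-451a, and from 600 bases 16 and 17 of 21, beside 47.1% and 48.1% of all tested genes. With median centring the rises numbered 1, 10 and 9 in these classes in miR-144 and 1, 13 and 11 in miR-451a, beside 30.8% and 31.3% of all genes. The median differences of these classes were 0.10, 0.19 and 0.22 in miR-144 and 0.01, 0.19 and 0.23 in miR-451a. Over the 78 tested members with an annotated coding sequence, Spearman's rho of coding length with the difference was 0.36 and 0.45, a description across genes of the same libraries and not independent points. The share of stretches found in other genes had rho of -0.04 and 0.00 with the difference. Between miR-451a and miR-144, where no gene passed the test, rho of coding length with their difference was 0.48. Of the 11 members under 300 bases 10 were below 0 in that comparison, with a median of -0.08. The length trend was thus not limited to the comparisons with control.

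Short members were also the most variable. The median over genes of the SD within groups, as a percent of the mean, was 14.6% under 300 bases, 6.57% from 300 to under 600 and 4.59% from 600 bases. The short members were high together in some libraries: in miR-144 replicate 1 and in miR-451a replicate 4 all 11 were above the group mean, by a mean of 0.32 on the log2 scale each, and in miR-451a replicate 1 none was, at -0.31. The -ps pseudogenes went the same way, with 71, 71 and 19 of 87 above the group mean in these libraries. With trends on length and GC content removed in each sample, 42 members were higher in miR-144, beside 30.8% of all tested genes, and 45 were higher and 2 lower in miR-451a, beside 31.9% and 32.2%. The member medians were then 0.13 and 0.14, with those of all genes at 0.00 in each. Rpl41 (-0.35) and Rplp1 (-0.17) were those that fell in miR-451a. The part of fragment length or RNA quality was not tested.

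**Figure D4:**
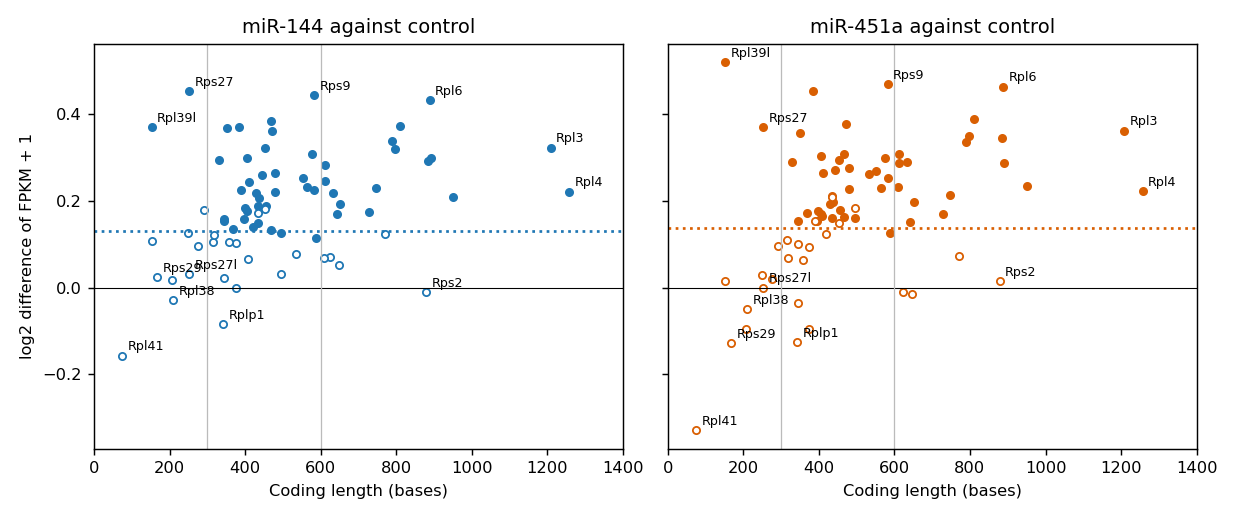
Difference of log2(FPKM + 1) from control (y axis) against coding length in bases (x axis) for 76 of the 78 tested members with an annotated coding sequence, with filled points for an adjusted p under 0.05, vertical lines at 300 and 600 bases and dotted lines at the medians of all tested genes. Short members lie lower, apart from Rps27 and Rpl39l.

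Many members have processed pseudogenes, whose reads can be shared. Of the 38 tested members with under 50% of the stretches of their principal transcript in other genes, 27 rose in miR-144 and 25 in miR-451a, and of the 40 with at least 50%, 25 and 27, beside 47.1% and 48.1% of all tested genes. Of the 275 genes with -ps symbols, 87 passed the filter. Of these 33 rose and none fell in miR-144, and 36 rose and 1 fell in miR-451a, with medians of 0.15 and 0.11. These rises are 37.9% and 41.4% of the pseudogenes tested, below the 47.1% and 48.1% of all tested genes. Their share of the summed FPKM was 0.918% in control, 1.1% in each miRNA group.

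Other genes of ribosomes and translation are counted against the same background, in which 47.1% and 48.1% of all tested genes rose and 20.1% and 20.3% fell. Ribosomal genes that the rule does not match gave both directions. Fau, a fusion of a ubiquitin-like protein and a small subunit protein, rose by 0.25 and 0.27, from 228 ± 7.60 FPKM (SD, n = 5) to 271 ± 18.3 and 275 ± 14.4 FPKM (SD, n = 5). Rps3a1 rose by 0.14 and 0.15. Rack1, a scaffold on the small subunit, was at 0.16 and 0.21, not past the test. Rpl36al, a paralog of Rpl36a, fell by 0.28 and 0.31, and Rps19bp1, which binds Rps19, by 0.40 and 0.50. Of the 8 genes of this list 3 rose and 2 fell in miR-144, and 3 rose and 3 fell in miR-451a.

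The mitochondrial ribosome, a separate particle that translates the mitochondrial genome, moved in both directions. Of its 78 tested proteins 10 rose and 19 fell in miR-144 and 12 rose and 22 fell in miR-451a, with medians of -0.04 and -0.06, below the all-gene medians. Mrpl52 rose most, by 0.70 and 0.65. Mrps28 fell by 1.03 in miR-144 and Mrps6 by 1.17 in miR-451a.

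The genes that build ribosomes were split as well. Of 53 assembly factors 15 rose and 14 fell in miR-144 and 16 rose and 18 fell in miR-451a, with a median of -0.02 in each. Npm1, the nucleolar chaperone, rose most, by 0.49 and 0.54, from 67.2 ± 3.07 FPKM (SD, n = 5) to 94.7 ± 2.68 and 98.4 ± 4.97 FPKM (SD, n = 5). Rrp8, an rRNA methyltransferase of the nucleolus, fell most, by 0.88 and 0.92. Rrs1, which helps to incorporate 5S rRNA, fell by 0.67 and 0.63. Of 15 RNA polymerase I genes 8 and 9 rose and none fell, but the medians of 0.11 and 0.12 lay under those of all genes.

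Translation factors are given by role. Of 5 elongation factors 4 rose in each group and none fell. Eef1a1, which delivers aminoacyl-tRNA, went from a mean of 1866 FPKM to 2350 and 2371, and Eef2, which moves the ribosome along the mRNA, rose by 0.40 and 0.46. Of 7 eIF4 factors 2 rose and 3 fell, with the helicase Eif4a1 falling by 0.74 and 0.82. Of 13 eIF3 subunits 5 rose and 3 fell, and Eif3e rose most, by 0.62 and 0.64. Of 5 eIF1 and eIF5 factors 1 rose and 3 fell in miR-144 and none rose and 3 fell in miR-451a, with Eif5a falling by 0.59 and 0.60. Of 3 eIF2 subunits 1 rose and none fell in miR-144, and 1 rose and 1 fell in miR-451a. Of the 7 remaining factors 3 rose and 2 fell in miR-144 and 3 rose and 3 fell in miR-451a, and the poly(A)-binding protein Pabpc1 rose by 0.39 and 0.43. Over the 40 factors 16 rose and 11 fell in miR-144 and 15 rose and 13 fell in miR-451a.

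Of 20 genes of mTORC1 and Myc, which control ribosomal protein synthesis in other settings, 6 rose and 5 fell in miR-144 and 6 rose and 4 fell in miR-451a. Deptor, an inhibitor of mTOR, rose by 0.55 and 0.63 and Eif4ebp1, a repressor of cap-dependent translation, by 0.41 and 0.40. Myc fell by 0.43 and 0.33, from 3.54 ± 0.367 FPKM (SD, n = 5) to 2.37 ± 0.207 and 2.6 ± 0.216 FPKM (SD, n = 5). Mxd1, an antagonist of Myc, rose by 0.45 and 0.51, and Tsc1, an upstream brake on mTORC1, fell by 0.35 and 0.38. Mtor was at 0.03 and 0.04, not past the test.

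**Figure D5:**
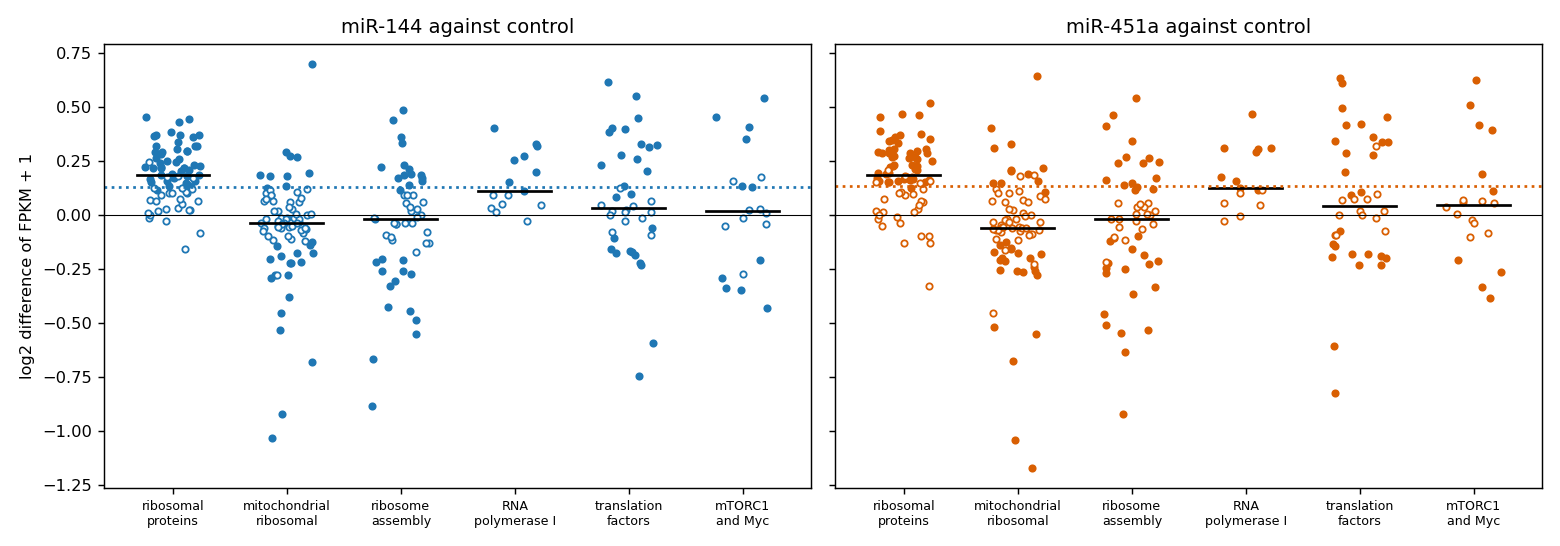
Difference of log2(FPKM + 1) from control (y axis) for the genes of 6 lists (x axis) in miR-144 and miR-451a, with filled points for an adjusted p under 0.05, a bar at the median of each whole list and a dotted line at the median of all tested genes. The ribosomal proteins (78 of 80 drawn) have a median of 0.19 and no falls, while every other list but RNA polymerase I has falls as well as rises.

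The miRNA groups were also compared with each other. None of the 80 tested members passed the test between miR-451a and miR-144, beside 0% of all tested genes, with limma as above. At an unadjusted p under 0.05 there were 3 members, among them Rpl11 with a difference of 0.18 ± 0.08 (SE) and Rpl13a with 0.16 ± 0.05, and 596 of the 11419 genes. The median difference of the members was 0.00 and 39 of 80 were above 0. A difference that misses the test does not show that the levels were alike.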

How the data were processed

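RNA-seq was analysed in 15 samples of sorted TAMs, 5 per group, grouped by the sample labels. The authors extracted total RNA with Trizol, sequenced it by Illumina and deposited 1 table of FPKM. The submitters' processing notes name FastQC 0.11.2, STAR and StringTie, and the genome build and annotation are not given in the sources used here. FPKM removes depth and length but not the makeup of each library. Estimates divide shared reads between genes and transcripts, which affects members with pseudogenes.

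All groups entered 1 limma fit (version 3.58.1, R 4.3.3) of log2(FPKM + 1), with a mean-variance trend, for the 11419 genes averaging 1 FPKM or more. Adjusted p-values use Benjamini-Hochberg over all of them. The fit was tested on simulated data. Named members were a set by subunit role and paralogy, the 5 largest rises and falls per comparison with control among members that passed without overlap, and any member in a count of 5 or fewer. The members and lists were chosen with earlier results of these data known. Rps3a, Rpl27rt and Riok2, on the lists, had no entry and were not analysed here. The values of some genes are not reported here, while counts and medians include them. Shared sequence was the percent of 50-base stretches found in transcripts of other genes, by GENCODE M21 on GRCm38, which is not claimed to be the authors' build and also gave coordinates. Alternatives were a pseudocount of 0.1, no filter, quantile normalization, TPM, median centring, a minimum mean of 5 FPKM, scaling without the members, no trend, 2 groups per fit, a replicate block, a minimum difference of 0.5, length and GC trends removed, low shared sequence, and each sample left out. A limit on sharing of the principal transcript and leaving out 3 or 5 libraries together were chosen after seeing the data. Other steps used Python 3.11.15, numpy 2.4.6, pandas 2.3.3 and matplotlib 3.10.9.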

Additional observations from a re-analysis of the deposited data

Results flagged for a closer look

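Among 132 groups of 5 samples tested for a sample far from the others, 5 had one, where chance gives about 1 in 20. Rps10 in miR-144 replicate 2 was at 116 FPKM against 65.8 to 76.7. Rpl37a in miR-144 replicate 1 was at 170 FPKM against 124 to 137, and Rpl22l1 in the same library at 14.8 FPKM against 11 to 11.8. Rpl13a in miR-451a replicate 4 was low, at 206 FPKM against 229 to 236, and Rps3 in miR-144 replicate 3 was low, at 114 FPKM against 121 to 124.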

How the results depend on the processing

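The member medians stayed above 0 against control under every alternative run, at 0.0511 and 0.0440 (miR-144, miR-451a) with median centring, 0.26 and 0.30 with quantile normalization, 0.26 and 0.27 as TPM and 0.27 and 0.28 when scaled without the members. Counts of members past the test were less stable: 21 and 29 with median centring, 0 and 2 with a difference of at least 0.5, and 27 and 25 when members with at least 50% of the principal transcript shared were left out, which leaves fewer members. Over all genes 4776 and 4821 passed with a minimum mean of 5 FPKM, which tests fewer genes, and 2602 and 2794 with a difference of at least 0.5. Leaving out 1 sample at a time gave 44 to 55 and 48 to 54 members, 7385 to 7497 and 7538 to 7697 genes and member medians of 0.15 to 0.21 in each, and between the miRNA groups 0 to 2 genes (2 without the 5 libraries), 0 members and medians of -0.01 to 0.02. Signs turned past the test for Rps2 (0.17 in miR-144 with quantile normalization, -0.13 in miR-451a with median centring), and Rpl23a went to 0.00 (-0.00129) in miR-144 with median centring. The cause was not tested. With a replicate block 53 and 53 members, 7711 and 7859 genes and 0 between the miRNA groups passed. The numbers were not taken to pair the samples, since a shared batch is not stated and not every same-numbered correlation of deviations was over 0.1. These ran from -0.127 to 0.108 (mean -0.0122) for miR-144 and from 0.0658 to 0.264 (mean 0.140) for miR-451a against control, and from -0.150 to 0.241 (mean 0.101) between the miRNA groups. Samples with different numbers had mean correlations of 0.00312, -0.0347 and -0.0251 in the same order. In these comparisons 1, 3 and 4 of 5 samples matched best with their own number. Whether the numbers mark a shared batch was not tested. Depth limits what can be said of Rpl3l and Rpl10l.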
